A study of Mus musculus and Homo sapiens with 4 samples.

Results

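Ribosome footprints from HEK cells were compared before and after capture of tagged ribosomes, using 2 of the 4 libraries of the series, 1 per group. HEK is a human embryonic kidney line, grown here in DMEM with 10% FBS, and both libraries share this medium; the labels name no drug, clone or separate culture for them. A ribosome footprint is the short stretch of RNA that survives RNase I digestion because a ribosome covers it. In the input library the digested lysate was fractionated by size exclusion chromatography. In the bound library assembled ribosomes were then pulled out with streptavidin, by a tag attached to their large subunit, and the labels do not name the tagged protein. The comparison addresses which reads travel with the tagged subunit. All 194871 transcripts of the files were joined, and 48823 features with 100 or more reads summed over the pair were compared. A feature is the coding region of a transcript, or, in transcripts without a counted one, the entire transcript.

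Cytosolic mRNAs are read by ribosomes whose large subunit is made from nuclear genes and can carry such a tag. Mitochondria have ribosomes of their own, with different RNAs and proteins, which translate the mRNAs of the mitochondrial genome. Many other RNAs sit in protein particles that are not ribosomes, such as the spliceosome, RNase P and the vault, and these particles can also shield RNA from nuclease. Known members of these groups therefore served as references. The files do not pair transcripts with gene names, and neither do the name tables used here. The symbols of 98 reference transcripts were assigned from general knowledge of the public Ensembl annotation, without a table to check them against. All 98 identifiers occurred in the files, and 75 of them had 100 or more summed reads.

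Transcript counts summed to 17446956 for the input and to 30208713 after capture. Transcripts overlap, and the sources used here do not give the counting rule, so these sums are not numbers of reads. Ratios below are bound over input, after dividing bound reads by 1.99, the factor that puts the median log2 ratio of coding regions at 0. They show gain or loss relative to that median coding region and not the yield of the capture. With 1 library per group there is no replicate check and no p-value. The 95% intervals are exact (Clopper-Pearson) and cover counting error only, since PCR copies are not independent molecules.

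The coding regions of the cytosolic reference mRNAs were retained in nearly their input proportions. Of 38 such mRNAs 37 passed the minimum, and 0 of these 37 differed 2-fold in either direction. Over all 26492 coding regions compared, 0.861% were lower by 2-fold or more and 0.0528% higher by as much. The median log2 ratio of the 37 was 0.11, with a range from -0.50 to 0.30, and 33 lay above 0. They are abundant, and the median over all coding regions also moved with abundance: it was -0.061 from 100 to under 300 summed reads, 0.056 from 1000 to under 3000 and 0.13 from 10000 to under 100000. The position of these mRNAs slightly above 0 was thus close to the medians of abundant coding regions. Those medians include the reference mRNAs themselves, so a separate set of coding regions of like read number was not compared.

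**Figure D1:**
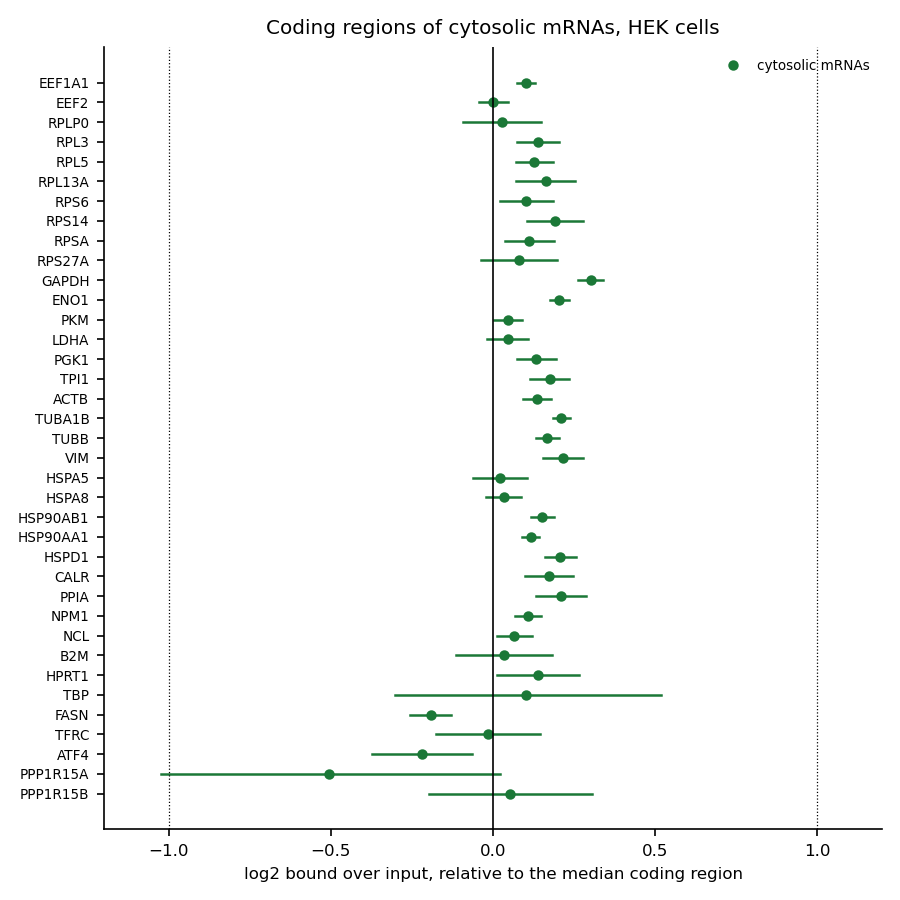
Log2 ratio of bound over input for the coding regions of 37 cytosolic mRNAs, with points for the ratio and bars for the 95% exact counting interval. The solid line is the median coding region and the dotted lines mark 2-fold; all points lie between -0.51 and 0.30.

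Genes of the translation machinery lay at or slightly above the median coding region. EEF1A1 (ENST00000309268.6), which delivers aminoacyl-tRNA to the ribosome, had 14349 input reads and 30620 bound reads, a log2 ratio of 0.10 (95% interval 0.073 to 0.13). EEF2, which moves the ribosome along the mRNA, had 6056 and 12046 reads and a ratio of 0.00068 (-0.044 to 0.045). It thus matched the median of all coding regions within counting error. Among coding regions with 10000 to under 100000 summed reads, as EEF2 has, the lower quartile was 0.092, above this interval. The 8 ribosomal protein mRNAs had log2 ratios from 0.028 (RPLP0) to 0.19 (RPS14). None of the 10 members lay below 0.

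Glycolytic enzymes ranged more widely. GAPDH (ENST00000229239.5) had 7497 input and 18371 bound reads and the highest ratio of the 37, 0.30 (0.26 to 0.34). ENO1 had 13072 and 29944 reads, a ratio of 0.20 (0.17 to 0.23). PKM and LDHA, which catalyse the last steps of the pathway and the reduction of its product, had ratios of 0.046 and 0.045. The interval of GAPDH does not overlap that of any other glycolytic enzyme listed, which are ENO1, PKM, LDHA, PGK1 and TPI1. Variation between cultures or captures was not measured, so this gap exceeds counting error only. Several of these genes, GAPDH and EEF1A1 among them, have processed pseudogenes, and the sources used here do not say how reads with several matches were counted.

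The cytoskeletal genes ACTB, TUBA1B, TUBB and VIM lay between 0.14 and 0.21. Among chaperones, the endoplasmic reticulum chaperone HSPA5 had 1739 and 3512 reads and a ratio of 0.023 (-0.061 to 0.11), and the cytosolic HSPA8 0.033. HSPD1, a chaperone encoded in the nucleus, made by cytosolic ribosomes and imported into mitochondria, had 4974 and 11421 reads and a ratio of 0.21 (0.16 to 0.26). HSPD1 was thus retained like other cytosolic mRNAs, in contrast to the mRNAs translated inside mitochondria described below.

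The lowest of the cytosolic coding regions were few. FASN, the fatty acid synthase, had 3223 and 5607 reads and a ratio of -0.19 (-0.26 to -0.13). The stress regulator ATF4 (ENST00000337304.2) had 552 and 942 reads and a ratio of -0.22 (-0.37 to -0.066). PPP1R15A, a phosphatase subunit that ends the stress response, had only 55 and 77 reads, and its ratio of -0.51 has an interval that reaches above 0 (-1.02 to 0.020). PPP1R15B, its constitutive relative, had 195 and 402 reads and a ratio of 0.052. DDIT3, a transcription factor induced by stress, had 10 and 11 coding reads, too few to compare.

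These 4 stress genes carry short upstream open reading frames in their 5' leaders, where ribosomes initiate before the main coding region. The leader reads of ATF4 and PPP1R15B were retained about as well as their coding reads, and those of the other pair were too few to judge. The ATF4 leader had 596 input reads and 981 bound reads, or 1.08 and 1.04 leader reads per coding read. The PPP1R15B leader had 58 and 137 reads, or 0.30 and 0.34 per coding read. The DDIT3 leader had 32 and 39 reads and that of PPP1R15A 7 and 8, with no ratio given because coding or leader reads were few. Over the 4 genes the leaders summed to 693 and 1165 reads, a ratio to the summed coding regions of 0.95 (0.87 to 1.05), to which ATF4 gave most of the reads. This interval covers the leader reads only. It takes the coding sums of 812 and 1432 reads as fixed, so it is too narrow for the ratio.

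The sparse leader reads of the other 34 cytosolic mRNAs were lower after capture than their coding reads. They summed to 674 before and 952 after capture, which is 4.09 and 2.64 per 1000 coding reads, or 1.55-fold lower (1.40 to 1.71). TUBB had the most of these, with 183 and 316 leader reads; without it the difference was 1.69-fold. The leader of TUBA1B had 71 and 77 reads, and that of RPSA, a ribosomal protein of the small subunit, 33 and 19. Leaders of this group thus had bound reads in less than the proportion of their coding regions, whereas the interval for the stress gene leaders includes equal proportions. The groups also differ in leader share, with 4.09 leader reads per 1000 coding reads in the input here and 853 in the stress genes. Gene group and leader share cannot be told apart in this contrast.

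Trailer reads of the same 34 mRNAs were also lower. The 3' trailers, which lie behind the stop codon, summed to 231 reads before and 235 after capture, beside 164858 and 360354 coding reads. This is 1.40 and 0.65 trailer reads per 1000 coding reads, a 2.15-fold difference (1.78 to 2.59). HSP90AA1 gave 71 and 83 of them, and without it the difference was 2.30-fold. The level was low in both libraries.

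**Figure D2:**
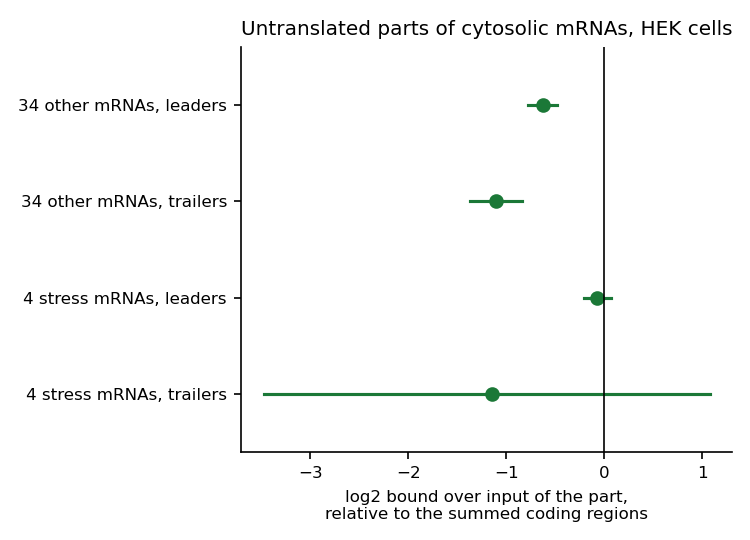
Log2 ratio of bound over input for summed leaders and trailers, relative to the summed coding regions of the same mRNAs, for 34 cytosolic mRNAs and for the 4 stress genes ATF4, DDIT3, PPP1R15A and PPP1R15B. Bars are 95% exact counting intervals of the part's reads; leaders of the stress genes lie near 0, and leaders and trailers of the other mRNAs below it.

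This did not hold for trailers with many reads of their own. In 1687 transcripts with 100 or more reads in both trailer and coding region, the median log2 difference of the trailer from its coding region was -0.0052, and 49.4% lay above 0. In 930 transcripts with as many leader reads the median difference of the leader was -0.21. Transcripts with 1000 or more coding reads were also grouped by trailer reads as a share of coding reads, over both libraries. In 1829 transcripts with a share under 0.3%, summed trailers were 2.55-fold lower relative to summed coding regions. The difference was 2.91-fold in 491 transcripts from 0.3 to under 1%, 2.06-fold in 139 from 1 to under 3%, 1.17-fold in 67 from 3 to under 10% and 1.44-fold in 203 from 10% up. Without the 10 trailers with the most reads in each group these became 2.58-fold, 3.05-fold, 2.43-fold, 1.35-fold and 0.99-fold. Trailers with a small share were thus lower than their coding regions. From 10% up the difference was absent without the 10 trailers with the most reads. That group summed to 183412 input and 272521 bound reads. It includes trailers with 15100 and 48306 input reads but only 1461 and 4579 bound reads. These belong to transcripts with nearly equal coding counts, described below with the lowest coding regions. Summed leaders were 1.74-fold lower with a share under 0.3% and 1.27-fold from 3 to under 10%. From 10% up the leader difference was 2.26-fold, and 1.12-fold without the 10 leaders with the most reads. Of the 117205 input reads of this leader group, transcripts with those nearly equal coding counts held 12773, 8896 and 54769. Isoforms overlap, so these transcripts are not independent. From 10% up, summed trailers held 1081 reads per 1000 coding reads before capture and 749 after it. Whether such trailers share sequence with coding regions of other isoforms was not tested. These values therefore do not show whether reads from untranslated trailers were retained.

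All 13 mRNAs of the mitochondrial genome were strongly lower after capture. They encode subunits of the respiratory chain and of ATP synthase. Their median log2 ratio was -5.20, a level 36.7-fold lower, and each of the 13 was at least 16-fold lower. That far below the median coding region lay 0.0189% of all coding regions and 0.394% of all transcripts without one. For 8 of the 13 the files count no coding region (MT-ND1, MT-ND2, MT-ND3, MT-ND4, MT-ND6, MT-CYB, MT-CO1 and MT-CO3), so the whole transcript was used. These are the mitochondrial mRNAs known to lack a complete standard stop codon in the DNA. The 5 with a counted coding region had a median of -5.35 and the other 8 a median of -5.15.

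**Figure D3:**
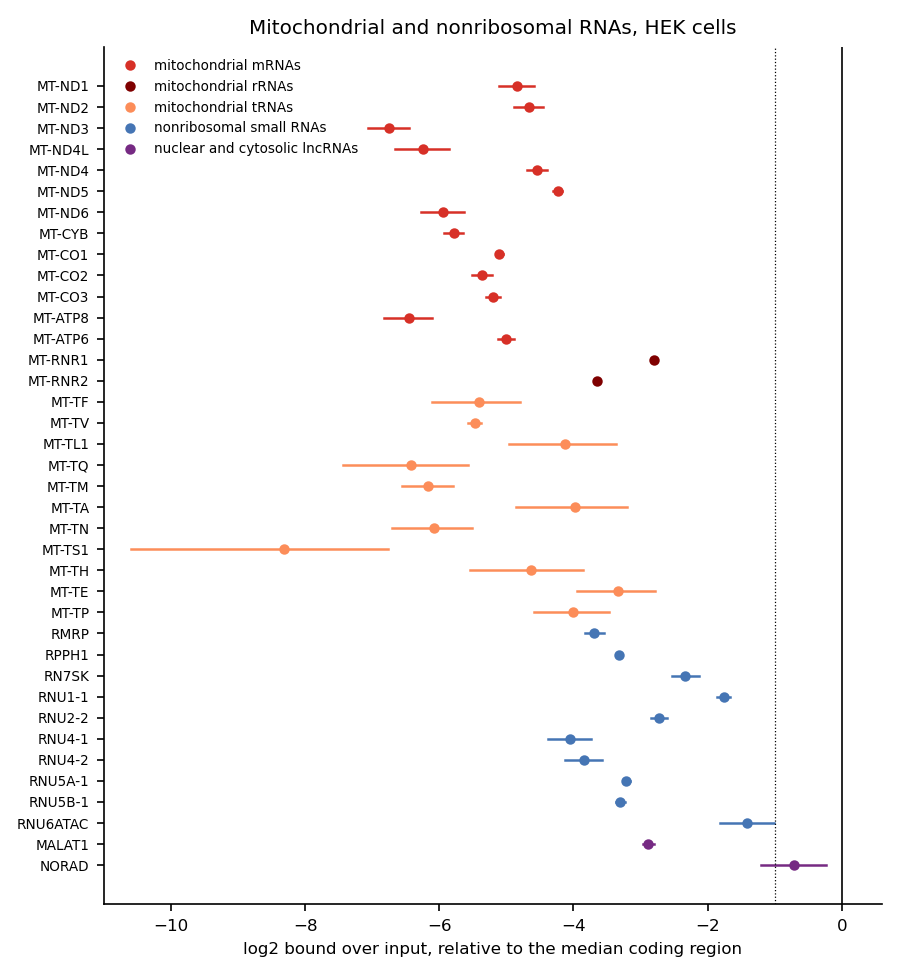
Log2 ratio of bound over input for the 38 mitochondrial, nonribosomal and long noncoding reference RNAs with 100 or more summed reads; points are ratios and bars 95% exact counting intervals. The solid line is the median coding region and the dotted line 2-fold lower; mitochondrial mRNAs lie between -6.74 and -4.24, and NORAD, at -0.72, is closest to 0.

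Complex I, the NADH dehydrogenase at the entry of the respiratory chain, has 7 subunits among the 13. MT-ND3 (ENST00000361227.2) had 4855 input and 90 bound reads, 107-fold lower (95% interval 87.1 to 134). MT-ND4L had 2090 and 55 reads, 75.6-fold lower (57.8 to 101). MT-ND5 (ENST00000361567.2) had 19201 and 2025 reads and was the least reduced of the 13, 18.9-fold lower (18.0 to 19.7). MT-ND4, MT-ND2 and MT-ND1 lay close to it at 23.3-fold, 25.4-fold and 28.7-fold, and MT-ND6, the one mRNA of the opposite strand, was 61.5-fold lower.

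The mRNAs of complex IV, cytochrome c oxidase, lay close together. MT-CO1 (ENST00000361624.2), its catalytic core, had the most reads of the 13, with 55533 before and 3206 after capture, 34.4-fold lower (33.2 to 35.7). MT-CO2 had 7671 and 372 reads, 41.0-fold lower, and MT-CO3 14538 and 787 reads, 36.7-fold lower. The cytochrome b mRNA of complex III, MT-CYB, had 11260 and 406 reads and was 55.1-fold lower (49.9 to 61.0).

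The ATP synthase pair differed from each other. MT-ATP8 (ENST00000361851.1) had 3045 and 69 reads, 87.7-fold lower (69.1 to 113), and MT-ATP6 9855 and 609 reads, 32.2-fold lower (29.6 to 35.0). These intervals do not overlap, although both are read from 1 shared mRNA and their coding regions overlap, as do those of MT-ND4L and MT-ND4. The sources used here do not say how reads in the overlap were assigned. Within the 13, neighbours in the order of loss mostly had overlapping intervals, so the order is uncertain; the exceptions were the steps from MT-CYB to MT-CO2 and from MT-ND4 to MT-ND5.

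Both mitochondrial ribosomal RNAs were lower, by less than the mRNAs their ribosomes translate. MT-RNR2 (ENST00000387347.2), the RNA of the mitochondrial large subunit, had 1355851 input and 215008 bound reads, 12.5-fold lower (12.5 to 12.6). MT-RNR1 (ENST00000389680.2), that of the small subunit, had 308581 and 87852 reads, 6.98-fold lower (6.93 to 7.04). The bound library therefore held 7.98% of the scaled input level of MT-RNR2 and 14.3% of that of MT-RNR1, against 0.93% to 5.30% for the mitochondrial mRNAs.

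Of the 22 mitochondrial tRNAs 11 passed the minimum. Since reads were summed over both libraries, most of these passed through their input reads, and a count of lower members would carry little weight. MT-TV, the valine tRNA, whose gene lies between those of the ribosomal RNAs and whose product is a structural part of the human mitochondrial large subunit, had 22577 and 1011 reads, 44.4-fold lower (41.7 to 47.3). That is a larger loss than for either ribosomal RNA. MT-TM, the methionine tRNA, had 2195 and 61 reads, 71.5-fold lower (55.5 to 93.9). The other 9 ranged from 10.1-fold lower (MT-TE, 158 and 31 reads) to 319-fold lower (MT-TS1, 482 and 3 reads, interval 109 to 1554). The 11 tRNAs below the minimum had 8 to 75 input reads and 0 to 10 bound reads each, 445 and 48 in sum.

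Together the 37 mitochondrial RNAs took 10.5% of transcript counts before capture and 1.04% after it. No interval is given for these shares, because the summed transcript counts are not numbers of reads. The ribosomal RNAs made up most of this, 9.54% and 1.003%, and the mRNAs 0.81% and 0.028%. Nuclear copies of mitochondrial sequence exist, and reads that match both may have been counted for either.

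**Figure D4:**
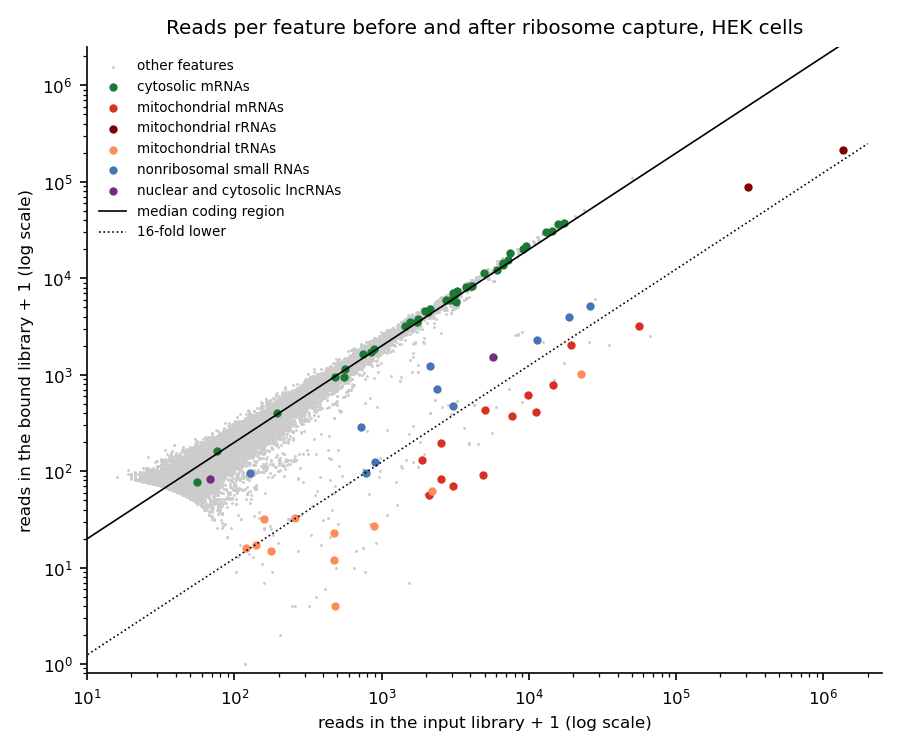
Reads of each feature in the input (horizontal, log scale) and bound library (vertical, log scale), each plus 1; grey points are all features compared and coloured points are reference RNAs. Cytosolic mRNAs follow the line of the median coding region, and mitochondrial mRNAs lie below the dotted line of 16-fold loss.

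RNAs of nonribosomal particles were lower too, by less than mitochondrial mRNAs. Of 19 small RNAs 10 passed the minimum, with a median log2 ratio of -3.26, or 9.56-fold lower. All 10 were at least 2-fold lower, against 2.58% of the 22331 transcripts without a coding region. That share was 16.5% among those with 10000 to under 100000 summed reads, reference RNAs included. Unlike the tRNAs, most of these reached the minimum with their bound reads alone, though RNU4-1 and RNU6ATAC, with 94 bound reads each, did not. The 9 small RNAs below the minimum, with 0 to 19 input and 0 to 33 bound reads, are not covered by this count. With a minimum of 30 summed reads, 10 of 11 were at least 2-fold lower and 1 lay above 0.

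The spliceosomal RNAs, which recognise splice sites and form the catalytic core of splicing, spread over a wide range. RNU5A-1 (ENST00000362698.1) had 18632 input and 3994 bound reads, 9.27-fold lower (8.96 to 9.60), and RNU5B-1, a second gene for the same RNA type, 11403 and 2301 reads, 9.85-fold lower (9.42 to 10.3). RNU4-1 had 783 and 94 reads, 16.6-fold lower (13.4 to 20.7), and RNU4-2 896 and 124 reads, 14.4-fold lower (11.9 to 17.5). Genes of the same type thus gave like values, within overlapping intervals. How reads that match both genes of a type were counted is not known, so these values may not be independent.

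RNU2-2 had 2380 and 716 reads, 6.61-fold lower (6.08 to 7.19). RNU1-1 (ENST00000383925.1), which binds the 5' splice site, had 2117 and 1242 reads and was only 3.39-fold lower (3.16 to 3.64). RNU6ATAC of the minor spliceosome had 126 and 94 reads, 2.66-fold lower (2.02 to 3.52). The loss thus ran from the RNU4 pair down to the RNU1 and RNU6ATAC genes, and the ends of this range differ beyond counting error. The intervals of RNU1-1 and RNU6ATAC overlap, as do those within the RNU4 and RNU5 pairs. These RNAs have near-identical copies in the genome, so their read numbers are uncertain; RNU6-1 was listed at 0 in both libraries.

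RNase P and RNase MRP, which process tRNA and ribosomal RNA precursors, were close to each other. RPPH1 (ENST00000516869.1), the RNase P RNA, had 26161 and 5194 reads, 10.0-fold lower (9.72 to 10.3), and RMRP (ENST00000363046.1) 3048 and 470 reads, 12.9-fold lower (11.7 to 14.2). RN7SK, which holds an elongation factor of RNA polymerase in an inactive particle, had 725 and 286 reads, 5.04-fold lower (4.39 to 5.80). The remaining small RNAs were too sparse for a ratio. The vault RNAs VTRNA1-1, VTRNA1-2 and VTRNA1-3 had 19, 8 and 5 input reads and 6, 3 and 2 bound reads. The telomerase RNA TERC had 10 and 33 reads and RNU4ATAC 5 and 9. Of the Y RNAs, RNY4 had 7 reads in each library and RNY1 and RNY3 were listed at 0, which allows up to 3 reads.

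Among long noncoding RNAs, the nuclear MALAT1 (ENST00000534336.1) had 5696 input and 1536 bound reads, 7.37-fold lower (6.97 to 7.81). Its loss lay between those of the RNU5 and RNU2 genes. NEAT1, the scaffold of nuclear paraspeckles, had 16 and 8 reads for its short form and 27 and 12 for its long form, which overlap. NORAD, a long noncoding RNA of the cytosol, had 67 and 81 reads and was 1.64-fold lower (1.17 to 2.30). NORAD was the least reduced of the 38 references outside the cytosolic mRNAs, and its interval overlaps that of RNU6ATAC.

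Across all 38 of these references the 13 mitochondrial mRNAs and 8 of the 11 mitochondrial tRNAs were reduced more than any nonribosomal RNA. MT-TP and MT-TA lay between RNU4-1 and RNU4-2, and MT-TE lay between MT-RNR2 and RPPH1. The other RNAs followed in the order RNU4, RMRP, MT-RNR2, RPPH1, RNU5, MALAT1, MT-RNR1, RNU2, RN7SK, RNU1, RNU6ATAC and NORAD. Most neighbours overlapped within counting error. Neighbours did not overlap between MT-CYB and MT-TV, MT-ND4 and MT-ND5, RNU5A-1 and MALAT1, RNU2-2 and RN7SK, and RN7SK and RNU1-1.

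The reference RNAs also account for the extreme of the coding regions. At least 16-fold lower were 5 of 26492 coding regions, and these 5 are the 5 mitochondrial coding regions that the files count. At least 8-fold lower were 9, of which 4 are no reference RNA. One of the 4 had 157 input and 25 bound reads, 12.5-fold lower (8.15 to 19.9). The other 3 had nearly equal coding counts, from 2132 to 2142 before capture and 396 to 398 after it, each 10.7-fold lower. Those 3 transcripts, singled out after their values were seen, carried leaders with 8896 to 54769 input reads, far more than their coding regions. These leaders were 3.83-fold to 6.10-fold lower, less than the coding regions. Where trailers were counted, they had 15100 and 48306 input reads and 1461 and 4579 bound reads, 20.5-fold and 21.0-fold lower. Of the 228 coding regions at least 2-fold lower, the 5 mitochondrial ones held 57.6% of the input reads.

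**Figure D5:**
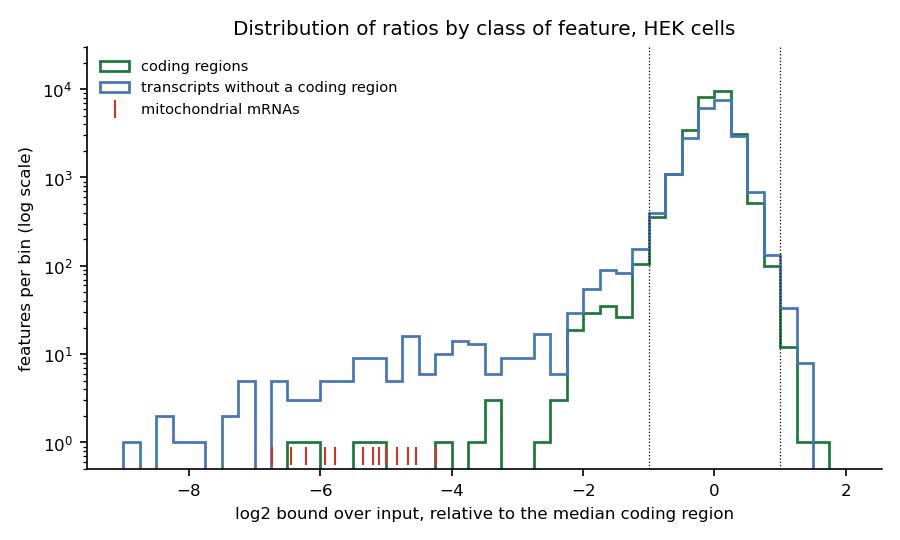
Number of features (log scale) by log2 ratio of bound over input, in bins of 0.25, for coding regions and for transcripts without a coding region; red marks show the 13 mitochondrial mRNAs and dotted lines 2-fold. Both classes peak near 0, and the class without a coding region has the longer low tail.

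Transcripts without a coding region had a longer tail, of which the reference RNAs are a minority by number. Of 577 at least 2-fold lower, 32 were reference RNAs, 21 of them mitochondrial, and 545 are not named here. By reads the balance was the reverse: the 21 mitochondrial RNAs held 76.8% of the input reads of the 577, and all 32 references held 79.9%. Most of this came from the 2 mitochondrial ribosomal RNAs, with 1664432 of the 2332037 input reads. At 16-fold or more, 17 of 88 were references, with 31.5% of the input reads. The 71 others formed 66 different pairs of counts, so few of them have counts identical to another's. Overlapping transcripts that share most of their reads without equal counts are not found this way. In the other direction 0.184% of the class was at least 2-fold higher in the bound library, and no reference RNA was among them.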

How the data were processed

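The deposited values are raw read counts, made by the authors, for whole transcripts and, per the file headers, separately for coding regions, leaders and trailers. The submitters' processing notes name CASAVA 1.8, Bowtie2 2.0.6 and TopHat2 2.0.7, and as builds mm10 and hg19, but give them no role. For the counting tool, the annotation release and reads with several matches, the sources used here give nothing.

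Parts listed as missing in either library were left out. Counts were scaled to the geometric mean depth of the pair, a prior of 0.5 reads was added for log2 medians and fold counts, and single ratios with intervals use no prior. Features needed 100 summed reads. The calculations were tested on simulated data. Python 3.11.15, scipy 1.17.1 and edgeR 4.0.16 (TMM factors only) were used. The members and lists were chosen with earlier results of these data known. The naming rule gave every reference RNA, with mRNAs lacking a coding region to be left out; the 8 mitochondrial mRNAs concerned are reported from whole transcripts instead. No human identifier occurs in the name tables, no sequences for human RNAs were used, and no marker list was used to check the HEK label. Alternatives were other scalings, minimums, priors, thresholds, whole transcripts and identical counts once.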

Additional observations from a re-analysis of the deposited data

How the results depend on the processing

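No paired analysis was possible because input and bound are single libraries, so no replicate could be left out. Under the alternatives run, the median of the mitochondrial mRNAs ranged from -5.35 to -5.00. That of mitochondrial rRNAs and tRNAs ranged from -5.52 to -4.01, and that of nonribosomal small RNAs from -3.37 to -2.37. The alternatives include the 5 mitochondrial mRNAs with a coding region, chosen after seeing the data. The medians stayed within their rank intervals, which are bounded by ratios of list members and take these as independent. In the main setting these were -6.22 to -4.66, -6.14 to -3.65 and -3.84 to -1.76. They are wide beside the scaling shifts given below, so staying within them under other scalings was nearly fixed in advance. The median of the cytosolic mRNAs was 0.31 with total counts, 0.17 with TMM, 0.14 with a minimum of 30 reads and 0.16 with 1 read in each library. Total counts shift all ratios by 0.20 and TMM by 0.057.

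Counts of 2-fold differences moved most, and are given as lower and higher. Coding regions, 228 and 14 in the main setting, numbered 131 and 87 with total counts, 1051 and 333 with a minimum of 30 reads, 11 and 0 with 500, 4027 and 1702 with 1 read in each library, 351 and 25 as whole transcripts, 1159 and 364 at 1.5-fold and 32 and 0 at 4-fold; 33 were higher with TMM and 343 lower when scaled to the cytosolic list. Transcripts without a coding region, 577 and 41, numbered 2111 and 484 with 30 reads, 133 and 0 with 500, 7616 and 2481 with 1 read in each, 1567 and 505 at 1.5-fold and 191 and 0 at 4-fold; the higher ones were 129 with total counts, 18 scaled to the cytosolic list and 20 with a prior of 5. Lower minimums admit features whose counting error alone is large. Another minimum, or the use of whole transcripts, also changes how many features are compared. Shares are not given for these settings, so their counts cannot be set directly against those of the main setting. Leaders against their own coding region had a median of -0.21, and -0.27 with 30 reads, -0.055 with 500 and -0.37 with 1 read in each library; trailers had -0.0052, and -0.26 with 1 read in each. For the other moves the cause was not tested.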
